A study of Mus musculus with 3 samples.

Results

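Esmolol was compared with no treatment in the hearts of mice without sepsis, and the contrast is described across all named genes of a 2-colour oligonucleotide microarray. Every probe that carried exactly 1 gene was used, and the probes of a gene were collapsed to their median, which gave 17814 measured genes of the 19532 named on the array (91.2%). The treated mice were C57BL/6 animals that received esmolol through a catheter in the right jugular vein at a constant 20 mg/kg/h. The controls were C57BL/6 animals listed with no treatment, and whether they carried a catheter or received vehicle, as well as age, sex and length of infusion, is not given in the sources used here. Each RNA sample used 30 mg of heart, and 8 animals made up each of the 6 groups of the series; the remaining groups are mice made septic with lipopolysaccharide (LPS, a bacterial cell wall component) or by cecal ligature and perforation (CLP), each with and without esmolol.

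The deposited value of a probe is a single log ratio that merges 4 replicates with dye swaps, so no gene has a replicate error, and no difference below was tested. All values are log2 ratios of esmolol over control unless a fold is named, and a value above 0 is higher with esmolol. The direction follows the sample title and the series' design text, which both put treated hearts first. The base of the logarithm is not stated and was taken as 2. Counts of higher and lower genes use a threshold of 1.5-fold, or 0.585 in log2 units. The gene lists and their members were chosen with earlier results of these data known. Their counts and medians are therefore descriptions and partly reflect that choice. Where a gene had more than 1 probe, ± gives the SD between its probes, which covers neither animals nor hybridizations. The table holds ratios without intensities, so the labelled tissue could not be checked against its marker genes, and no level can be compared between genes. In RNA from whole tissue, fewer cells of a type and less RNA per cell cannot be told apart.

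Esmolol is a rapidly cleared beta blocker with preference for the beta-1 type of receptor. In heart muscle that receptor couples through the stimulatory G protein to adenylyl cyclase, and the cAMP it produces activates protein kinase A, which phosphorylates calcium handling and contractile proteins and the transcription factor CREB. Heart cells also carry a circadian clock, in which the activators Clock and Bmal1 (Arntl) drive Per, Cry and Nr1d genes that feed back on them, and they respond to glucocorticoids through a nuclear receptor. Chemokines recruit leukocytes, and interferons induce antiviral proteins and guanylate-binding and immunity-related GTPases through STAT and IRF factors.

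The contrast was narrow. The SD over genes was 0.14, the central 95% of genes lay between -0.29 and 0.25, 66.8% lay within 0.1 of 0, and 8992 genes were above 0 and 8819 below. At 1.5-fold, 39 genes were higher (0.219% of the genes measured) and 43 lower (0.241%), 82 in all (0.460%). Counts of list members below are to be read beside these shares, at which a short list mostly holds no such gene. At 1.3-fold 146 were higher (0.820%) and 186 lower (1.04%). The 2 directions differed in their reach. At 2-fold 1 gene was higher and 16 were lower, and at 4-fold no gene was higher and 4 were lower, namely Saa3, Cxcl5, Cxcl10 and Cd274. The highest value was 1.03, for Ahsg, and the lowest -3.12, for Saa3. Just inside the threshold stood Ptprn2 at 0.59 and Tnfaip2 at -0.59, and just outside it Spata3 at 0.58 and 4930538E20Rik at -0.58. Olfactory and vomeronasal receptor genes, best known from sensory neurons, had 4 of 745 members past 1.5-fold (0.537%), between -0.60 and 0.90, a share close to that of all genes.

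**Figure D1:**
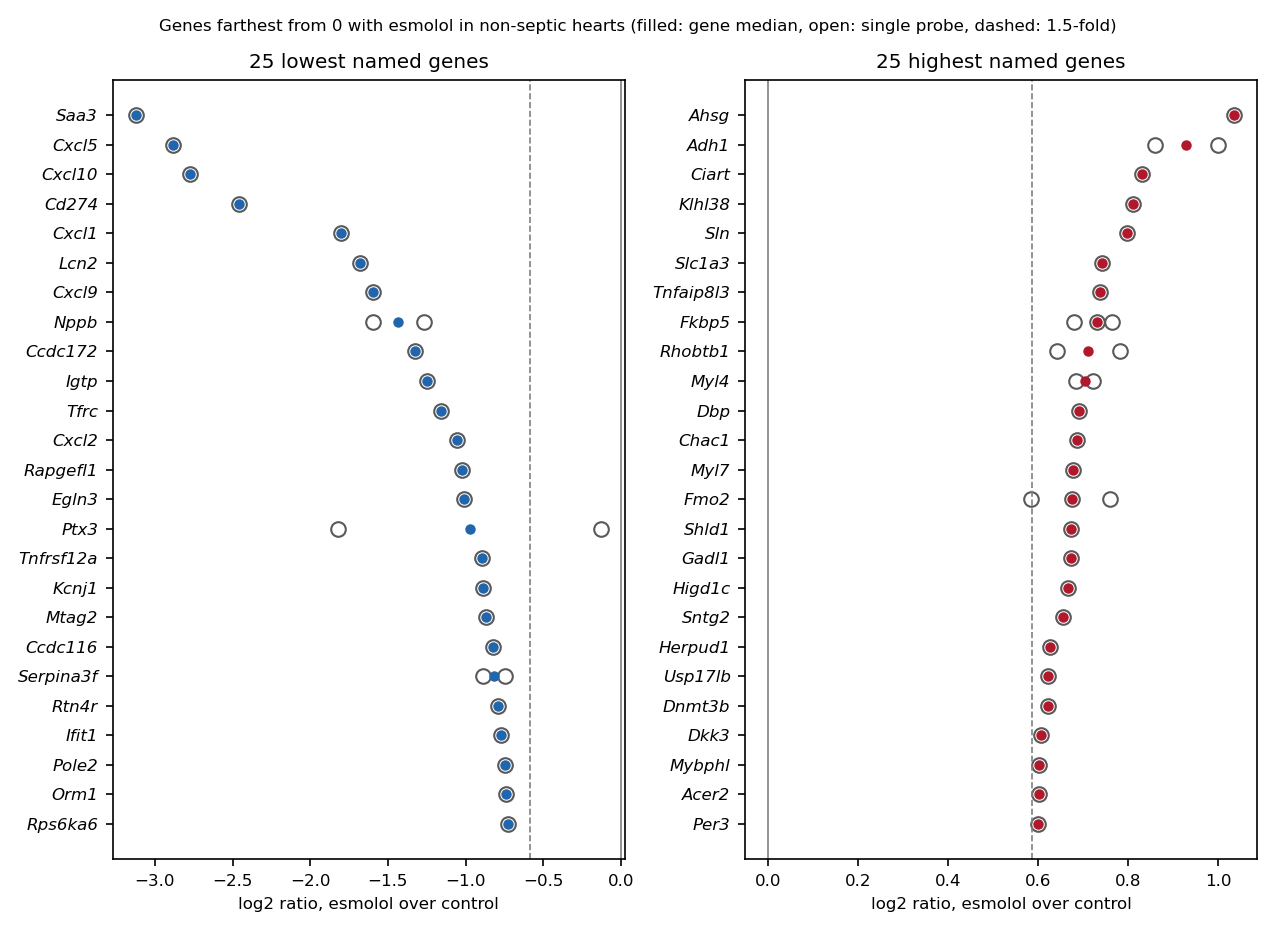
The 25 lowest (left) and 25 highest (right) genes with plain symbols, by log2 ratio of esmolol over control (horizontal axis); filled points are gene medians, open circles single probes and dashed lines 1.5-fold. The lowest genes reach -3.12 (Saa3), while the highest stop at 1.03 (Ahsg).

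Probes of the same gene show how far single readings of it differed. Of the 82 genes past 1.5-fold, 66 had 1 probe. All 16 with more than 1 probe had every probe on the same side of 0, which their choice by the median of these probes nearly fixes. Among all 7472 genes with more than 1 probe the share was 53.5%, and it depended on the size of the change. It was 42.5% among genes whose median lay within 0.1 of 0, 79.9% from 0.1 to 0.2, 90.2% from 0.2 to 0.4 and 91.9% from 0.4 to the threshold. All probes passed 1.5-fold the same way in 10 genes (0.134% of genes with more than 1 probe). The 4 higher ones were Adh1, Fkbp5, Rhobtb1 and Myl4, and the 6 lower ones Nppb, Serpina3f, Rcan1, Irgm1, Ankrd23 and Ifit2. In 3 genes the probes stood apart: Ptx3 had probes at -1.82 and -0.13, Aplnr at -0.88 and -0.30, and the 3 probes of Itgb6 ran from -0.82 to -0.24.

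**Figure D2:**
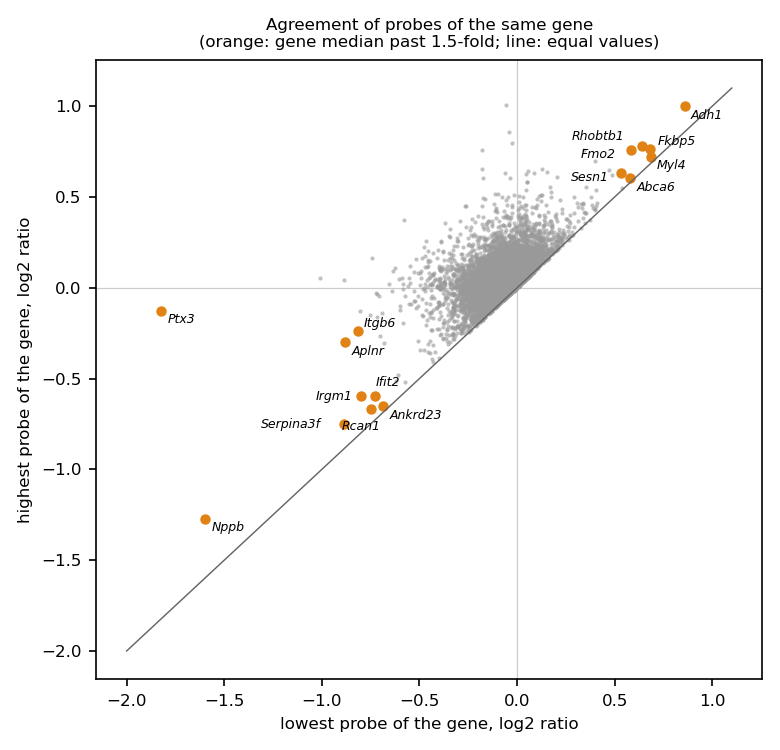
Lowest (horizontal axis) against highest (vertical axis) probe of each gene with more than 1 probe, as log2 ratios of esmolol over control; orange points are the 16 genes past 1.5-fold, and the line marks equal values. Of the 16, all lie in the corners where both probes share a sign, and Ptx3 lies farthest from the line.

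Of the 4 genes lower by 4-fold or more, 2 were chemokines, which attract leukocytes. Of 27 measured CXC and CC chemokines, 5 passed 1.5-fold downward and none upward, where 0.241% and 0.219% of all genes did. Among the 27, 18 lay below 0, and the median was -0.12 against 0.00 over all genes. The 5 were Cxcl5 at -2.88 (7.39-fold lower), Cxcl10 at -2.78 (6.86-fold lower), Cxcl1 at -1.80, Cxcl9 at -1.60 and Cxcl2 at -1.06, each read from 1 probe. Cxcl1, Cxcl2 and Cxcl5 are ligands of the neutrophil receptor Cxcr2, and Cxcl9 and Cxcl10 are interferon-inducible ligands of the lymphocyte receptor Cxcr3. The remaining CXC and CC genes stayed within 1.5-fold. Cxcl11, the third ligand of Cxcr3, stood at 0.06, Cxcl3 at 0.05, the monocyte attractant Ccl2 at -0.06, and Ccl6 was highest at 0.42. The receptor Cxcr2 itself stood at 0.02.

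Acute phase proteins split. Of 18 measured, 3 were lower and 1 was higher (0.241% and 0.219% over all genes), and the median was -0.0009, against 0.0010 over all genes. Saa3, a serum amyloid A made in inflamed tissue, had the lowest value of all genes at -3.12 (8.71-fold lower), whereas its relatives Saa1, Saa2 and Saa4 stood at -0.18, 0.01 and -0.09. Lcn2, which binds bacterial siderophores, stood at -1.68, and Orm1, a plasma glycoprotein, at -0.74. Ahsg, the liver-made plasma protein fetuin-A, was the highest gene of the contrast at 1.03 (2.05-fold higher). It was also the only one of 9 measured hepatocyte markers past 1.5-fold, and the others ranged from Apoa2 at -0.14 to Fgb at 0.23. Ptx3, a secreted pattern recognition protein, had a median of -0.97 ± 1.20 (2 probes), and Csf3, the neutrophil growth factor, stood at -0.68 while no other of 19 measured inflammatory cytokines passed 1.5-fold. Among these, Tnf was at -0.07, Il1b at 0.04 and Il6 at -0.25. Tnfrsf12a, the receptor of the cytokine Tweak, was at -0.89, and the other 28 cytokine receptor, STAT and SOCS genes stayed between Socs3 at -0.32 and Jak2 at 0.20.

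The promoters of Cxcl1 and Cxcl2 are shown because both genes were lower and both hold a match to an NF-kB motif, GGGA and TTTCC with 1 base between them, in capitals. The windows run from 250 bases before to 50 bases after the annotated start, 5′ to 3′ on the strand of the gene, and come from RefSeq, build GRCm38.p6. They lie at chr5:90890995-90891294 (plus strand, Cxcl1) and chr5:90903649-90903948 (plus strand, Cxcl2), with the match starting 71 and 97 bases before the start.
Cxcl1: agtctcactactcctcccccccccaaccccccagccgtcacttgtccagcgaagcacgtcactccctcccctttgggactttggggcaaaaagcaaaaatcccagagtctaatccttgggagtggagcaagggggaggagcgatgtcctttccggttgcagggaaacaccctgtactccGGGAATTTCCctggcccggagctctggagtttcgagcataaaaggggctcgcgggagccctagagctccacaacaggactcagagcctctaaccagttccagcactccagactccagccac
Cxcl2: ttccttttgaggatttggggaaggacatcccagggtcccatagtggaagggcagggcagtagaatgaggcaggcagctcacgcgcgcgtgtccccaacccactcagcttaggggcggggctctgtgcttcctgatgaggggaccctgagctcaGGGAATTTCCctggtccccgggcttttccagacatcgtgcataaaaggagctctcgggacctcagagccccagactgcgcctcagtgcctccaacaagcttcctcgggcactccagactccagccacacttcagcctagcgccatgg
Searched on both strands, the motif was present in 0.526% of the promoters of 14246 measured genes with an entry in the table. It was present in 2 of the 35 lower genes with an entry (5.71%), which are the ones shown, and in none of the 30 higher genes with an entry. Of the chemokines with an entry, 3 of 19 held it (15.8%), the third being Cxcl3, which stood at 0.05. The match is a description of the sequence and no evidence that a factor bound there.

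Some interferon-inducible genes were lower as well, most of them by smaller amounts than the chemokines. A list of interferon-inducible GTPases and checkpoint ligands, which also holds genes such as Irf1, Ciita and Socs1, had 21 measured genes. Of these, 4 were lower and none was higher (0.241% and 0.219% over all genes), 19 lay below 0, and the median was -0.17. Cd274, which encodes the checkpoint ligand PD-L1, stood at -2.46 (5.49-fold lower). The immunity-related GTPases Igtp and Irgm1 stood at -1.25 and -0.70 ± 0.15 (2 probes), and the guanylate-binding protein Gbp3 at -0.60. Gbp2 at -0.56 and Iigp1 at -0.50 fell short of the threshold, Irgm2 was at -0.01, and Ido1 was highest at 0.12. Of 29 antiviral genes, 3 were lower, none was higher, 20 lay below 0 and the median was -0.12. The 3 were members of 1 family, Ifit1 at -0.77, Ifit2 at -0.66 ± 0.09 (2 probes) and Ifit3 at -0.63. Ifit3b, a close relative outside the list, stood at -0.69, and similar probes may read both genes. The other antiviral genes stayed within 1.5-fold and most lay below 0, from Rtp4 at -0.33 and Rsad2 at -0.29 through Isg15 at -0.15 to Oas1a at 0.10 and Mx1, the highest, at 0.22.

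The promoters of Cxcl10, Ifit1 and Irgm1 are shown because each gene was lower and each holds a match to the interferon-stimulated response element, written as GAAA, 2 free bases and GAAA, in capitals and read on either strand. The windows are of the same kind as above, at chr5:92348840-92349139 (minus strand, Cxcl10), chr19:34640639-34640938 (plus strand, Ifit1) and chr11:48871371-48871670 (minus strand, Irgm1). Ifit1 holds a pair of matches in reverse orientation, 104 and 85 bases before the start, and in Irgm1 matches at 30 and 24 bases before the start overlap.
Cxcl10: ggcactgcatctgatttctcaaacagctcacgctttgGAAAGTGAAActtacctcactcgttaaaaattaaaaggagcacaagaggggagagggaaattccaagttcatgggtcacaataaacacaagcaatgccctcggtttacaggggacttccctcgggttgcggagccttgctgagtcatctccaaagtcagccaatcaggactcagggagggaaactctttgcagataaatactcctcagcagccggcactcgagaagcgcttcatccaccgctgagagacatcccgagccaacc
Ifit1: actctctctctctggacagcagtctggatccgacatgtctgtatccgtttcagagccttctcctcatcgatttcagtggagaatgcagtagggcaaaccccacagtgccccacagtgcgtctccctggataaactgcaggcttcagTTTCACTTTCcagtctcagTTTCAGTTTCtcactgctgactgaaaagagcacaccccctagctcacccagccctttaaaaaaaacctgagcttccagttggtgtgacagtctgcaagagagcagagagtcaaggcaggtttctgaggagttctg
Irgm1: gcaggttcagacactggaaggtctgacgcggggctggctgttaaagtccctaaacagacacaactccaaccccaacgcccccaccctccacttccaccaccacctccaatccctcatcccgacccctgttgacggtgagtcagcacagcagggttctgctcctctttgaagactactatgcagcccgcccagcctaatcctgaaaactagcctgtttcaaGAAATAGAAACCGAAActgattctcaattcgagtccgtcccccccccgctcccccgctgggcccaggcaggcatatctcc
The element was present in 3.80% of the promoters of measured genes. It was present in 9 of the 35 lower genes with an entry (25.7%) and in none of the 30 higher ones. Across the gene lists it was present in 12 of 20 antiviral genes (60.0%) and in 10 of 13 genes of the GTPase and checkpoint list (76.9%). Genes of these lists thus carried it whether or not they were lower by 1.5-fold.

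Antigen presentation genes stayed within 1.5-fold, which 0.460% of all genes passed. None of 19 MHC class I, loading and immunoproteasome genes passed 1.5-fold, with 14 below 0, a median of -0.04 and a range from Pdia3 at -0.36 to Tap1 at 0.08. None of 9 MHC class II genes passed it either, between H2-Aa at -0.20 and H2-DMb2 at 0.16. Genes of NF-kB and of Toll-like receptors (27 measured) lay between Tnfaip3 at -0.40 and Lbp at 0.28, complement genes (16 measured) between Cd55 at -0.21 and C1qc at 0.16, and adhesion and coagulation genes (21 measured) between Sele at -0.38 and F13a1 at 0.24, and none of these passed 1.5-fold. Over all 233 measured inflammation and interferon genes, 17 were lower and 1 was higher, where 0.241% and 0.219% of all genes were. Among the 233, 92 lay above 0 and the median was -0.04. Serpina3f, a serine protease inhibitor outside the lists, was lower at -0.82 ± 0.10 (2 probes).

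Leukocyte markers other than Lcn2, measured beside these genes, stayed within 1.5-fold. None of 17 measured monocyte and macrophage markers passed 1.5-fold. Of these, 11 lay above 0 with a median of 0.11, and they ran from Timd4 at -0.17 to Cd163, a scavenger receptor of resident macrophages, at 0.48. Above the central 95% of all genes stood 4 of them, and none stood below it. The 4 were Cd163, Lgals3 at 0.42, Lyve1 with probes at 0.34 and 0.38, and Ly6c2 at 0.32. Of 15 neutrophil markers, Lcn2 alone passed 1.5-fold, 8 lay above 0 and the median was 0.02. T and NK cell markers (11 measured) lay between Ccl5 at -0.30 and Cd3d at 0.24, and B cell markers (9 measured) between Cd79b at -0.24 and Jchain at 0.16. Their part in the lower chemokine and interferon genes was not tested.

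**Figure D3:**
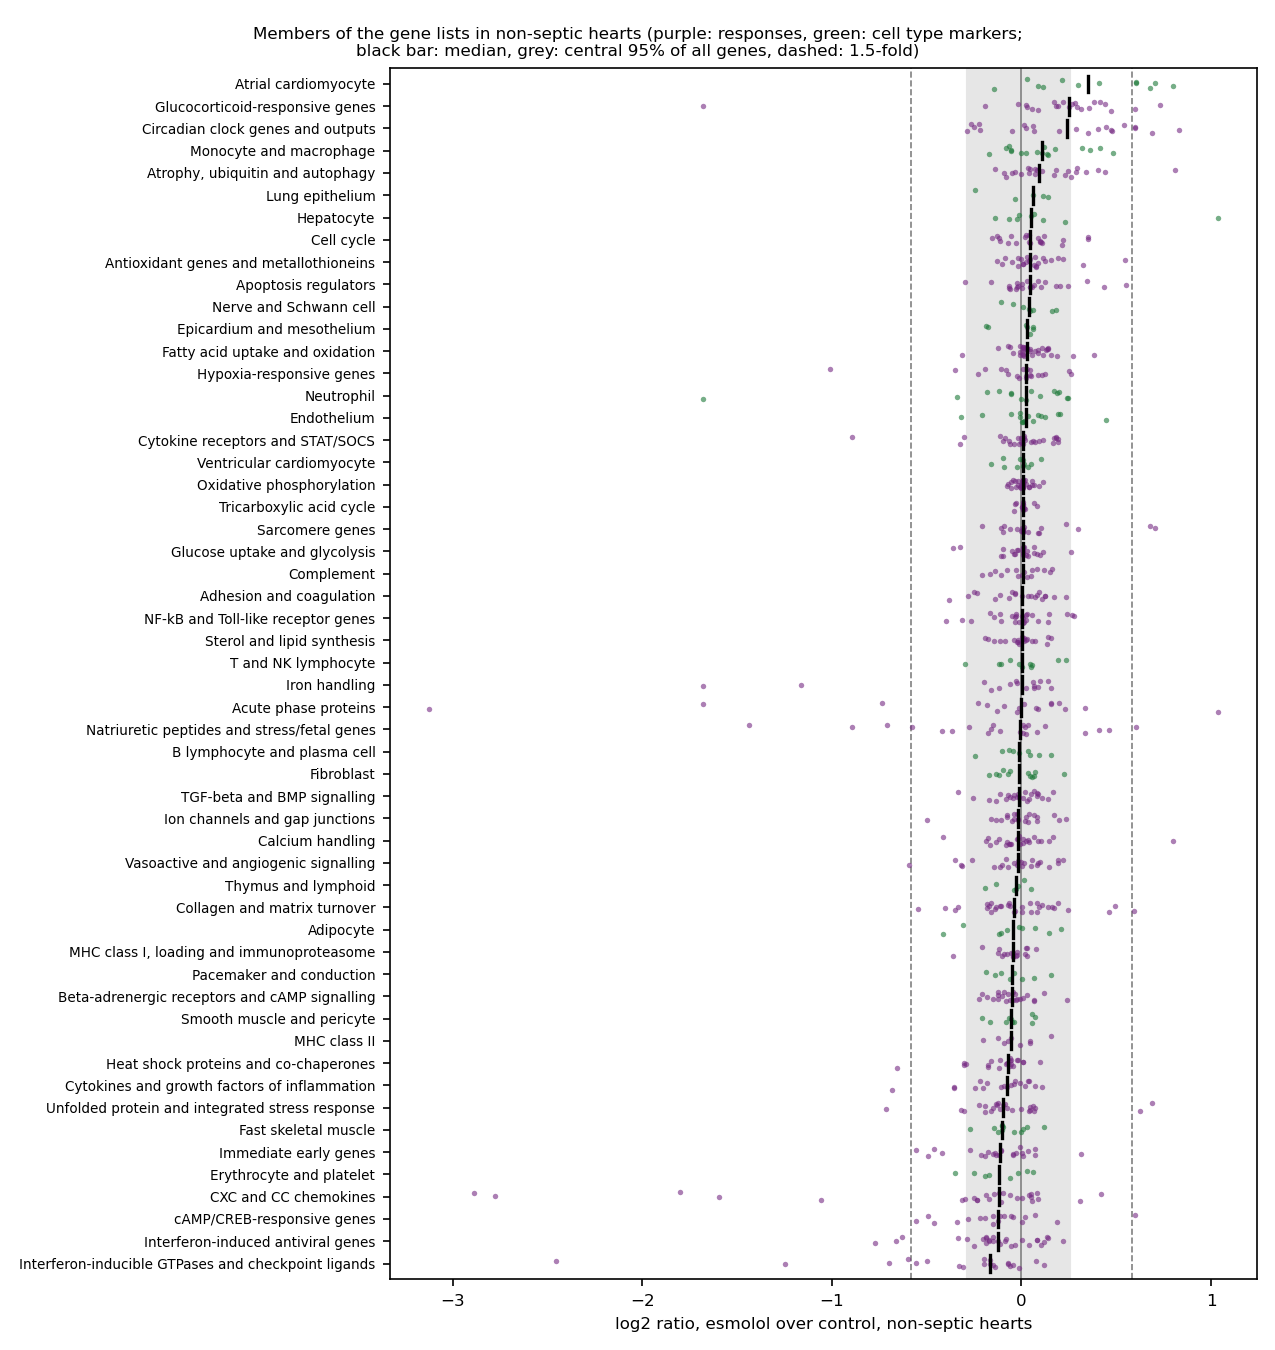
Log2 ratio of esmolol over control (horizontal axis) for each measured member of the 54 gene lists, sorted by list median; purple points are response lists, green points cell type markers, black bars medians, the grey band the central 95% of all genes and dashed lines 1.5-fold. Atrial markers, glucocorticoid-responsive genes and clock genes have the highest medians (0.35, 0.25 and 0.24), and the interferon and chemokine lists are among the lowest. The lists were chosen with earlier results of these data known, so this order is a description only.

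Clock genes stood on both sides of 0, and more of them above it. Of 22 measured, 4 were higher by 1.5-fold (0.219% over all genes), none was lower, 16 lay above 0 and the median was 0.24. The 4 higher ones were Ciart, a repressor of Clock and Bmal1, at 0.83, Dbp, a PAR leucine zipper factor, at 0.69, and the repressors Per1 and Per3 at 0.60 each, all from 1 probe. Close to them stood Hlf and Tef, the other PAR factors, at 0.54 and 0.47 (4 probes for Tef, from 0.47 to 0.65), and Wee1, Nr1d2 and Usp2 at 0.48, 0.44 and 0.40. Per2 was at 0.35, with probes at 0.49 and 0.22. The activators were below 0, with Arntl at -0.29 and Clock at -0.27, as were the repressors Bhlhe40 at -0.25, Nfil3 at -0.22 and Nr1d1 at -0.22 (3 probes, from -0.22 to -0.13). Cry1 stood at -0.05 and Npas2 at 0.01. Whether treated and control hearts were taken at the same hour is not given in the sources used here, and the part of sampling time in these values was not tested. The median was 0.06 over the clock genes with more than 1 probe.

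The promoters of Ciart, Per1 and Per3 are shown as those of the higher clock genes that hold a match to a clock motif, with matches in capitals. Ciart (chr3:95882179-95882478, minus strand) holds 3 E-boxes, CACGTG, starting 116, 58 and 44 bases before the start, and Per1 (chr11:69098699-69098998, plus strand, 1 of 2 promoters in the table) holds 1 at 166 bases. Per3 (chr4:151044616-151044915, minus strand) holds D-boxes, TTATGTAA, at 205 and 158 bases.
Ciart: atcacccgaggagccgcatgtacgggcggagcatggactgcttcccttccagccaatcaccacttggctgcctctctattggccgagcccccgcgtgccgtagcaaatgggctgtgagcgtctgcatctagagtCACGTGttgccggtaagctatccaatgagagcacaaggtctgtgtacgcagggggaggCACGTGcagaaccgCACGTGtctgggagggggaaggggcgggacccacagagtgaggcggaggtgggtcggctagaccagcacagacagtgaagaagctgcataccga
Per1: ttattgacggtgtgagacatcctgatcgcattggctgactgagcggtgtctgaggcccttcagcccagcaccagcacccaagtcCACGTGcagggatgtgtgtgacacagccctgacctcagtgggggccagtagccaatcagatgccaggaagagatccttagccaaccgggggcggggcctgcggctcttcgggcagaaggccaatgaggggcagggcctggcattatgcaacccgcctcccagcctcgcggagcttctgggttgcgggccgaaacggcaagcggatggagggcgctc
Per3: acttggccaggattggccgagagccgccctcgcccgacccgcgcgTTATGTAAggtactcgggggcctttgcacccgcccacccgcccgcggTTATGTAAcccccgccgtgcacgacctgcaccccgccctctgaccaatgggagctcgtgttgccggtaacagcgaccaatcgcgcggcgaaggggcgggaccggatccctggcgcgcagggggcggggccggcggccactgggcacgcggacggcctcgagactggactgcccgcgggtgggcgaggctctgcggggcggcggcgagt
The E-box was present in 10.1% of the promoters of measured genes, in 6 of 30 higher genes (20.0%: Adh1, Ciart, Fkbp5, Per1, Rhobtb1 and Tcte3), in 3 of 35 lower genes (8.57%) and in 5 of 18 clock genes (27.8%). The D-box was present in 0.779% of measured genes and in 2 of the higher genes, Per3 and Mybphl.

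Glucocorticoid-responsive genes had a median close to that of the clock genes. Of 23 measured, 2 were higher by 1.5-fold and 1 was lower (0.219% and 0.241% over all genes), 20 lay above 0 and the median was 0.25. Fkbp5, a co-chaperone of the glucocorticoid receptor, had probes at 0.68, 0.73 and 0.76, a median of 0.73 ± 0.04 (1.66-fold higher). Per1 was the only gene shared with the clock list. Klf15 and Klf9, transcription factors induced by glucocorticoids, stood at 0.47 and 0.41, Pik3r1 at 0.44 (4 probes, from 0.38 to 0.46), the pyruvate dehydrogenase kinase Pdk4 at 0.38 and Tsc22d3, known as Gilz, at 0.36. Mt1 and Mt2 were at 0.22 and 0.20, and Sgk1, Tat and Angptl4 were near 0 at 0.09, 0.05 and 0.03. Lcn2, at -1.68, was the lower member, followed by Dusp1 at -0.19. The glucocorticoid response element, searched as GNACA and TGTNC with 3 free bases between them, was present in 0.484% of the promoters of measured genes and in 2 of 20 genes of the list with an entry, Mt1 and Sgk1. It was in none of the genes past 1.5-fold with an entry, which says only that these letters are not in the windows.

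Genes of muscle atrophy and autophagy leaned the same way, with 1 of 24 higher (0.219% over all genes), none lower, 18 above 0 and a median of 0.09. Klhl38, a Kelch protein of striated muscle, stood at 0.81, and Fbxo30 was lowest at -0.14. Fbxo32, the ubiquitin ligase atrogin-1, stood at 0.44 with both probes past 1.3-fold.

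In the pathway of the drug target, changes were small. None of 24 measured genes of beta-adrenergic and cAMP signalling passed 1.5-fold, where 0.460% of all genes did. Of the 24, 6 lay above 0 and 18 below, and the median was -0.05. No beta-adrenergic receptor is among the 24, so the drug's own target is not covered by these counts. The only adrenergic receptor of the list with a value was the alpha type Adra1b, at -0.21. The range ran from Pkia, the protein kinase A inhibitor, at -0.23 to Adcy6, a main adenylyl cyclase of heart muscle, at 0.24. The other cardiac cyclase Adcy5 stood at -0.08, the kinase subunits Prkaca and Prkar1a at -0.02 and -0.18, the phosphodiesterases Pde4d and Pde3a at -0.15 and -0.04, the receptor kinase Grk5 at -0.07 and the arrestins Arrb1 and Arrb2 at 0.03 and 0.12. Of 19 cAMP- and CREB-responsive genes, 1 was higher (Per1) and none lower, but 14 lay below 0, with a median of -0.12. The lowest were Atf3 at -0.56, Egr1 at -0.49, Fos at -0.46 and Nr4a3 at -0.34, while Nr4a1 at -0.04, Crem at -0.09 and Ppargc1a at 0.19 were nearer 0. Immediate early genes (24 measured), a list that overlaps it, had none past 1.5-fold, 18 below 0 and a median of -0.11, with Zfp36 highest at 0.31.

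Stress genes of heart muscle went apart from one another. Of 23 natriuretic peptide and stress genes, 3 were lower and 1 higher (0.241% and 0.219% over all genes), with a median of -0.01. Nppb, the B-type natriuretic peptide released under wall stress, had probes at -1.60 and -1.27, a median of -1.43 ± 0.23 (2.70-fold lower). Nppa, the atrial peptide, was on the other side at 0.41, with probes at 0.20 and 0.61. Tnfrsf12a stood at -0.89, Rcan1, an inhibitor of calcineurin, at -0.71 ± 0.06 (2 probes), and Ankrd1, a titin-associated stress protein, at -0.58, just short of the threshold. Its relative Ankrd23, outside the list, was at -0.67 ± 0.02 (2 probes). Ccn2 stood at 0.46 and Ccn1 at -0.42, and Myh7 and Acta1, genes of the fetal programme, at 0.03 and -0.18. The natriuretic receptors Npr1, Npr2 and Npr3 were at 0.12, 0.08 and 0.33.

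Several genes typical of atrial muscle were higher. Of 12 measured atrial markers, 5 were higher by 1.5-fold (0.219% over all genes), none was lower, 11 lay above 0 and the median was 0.35. Sln, the atrial regulator of the calcium pump, stood at 0.80 (1.74-fold higher), the atrial myosin light chains Myl4 and Myl7 at 0.70 ± 0.03 (2 probes) and 0.68, the secreted protein Dkk3 at 0.61 and the myosin-binding protein Mybphl at 0.60. Nppa at 0.41 and Tbx5 at 0.30 followed, Bmp10 was at 0.03 and Dhrs9 at -0.14. The 11 ventricular markers stayed between Kcne1 at -0.16 and Hey2 at 0.10, with none past 1.5-fold. However, 4 of the 11 had a probe on the repeated value 0.0083 described below, which is also the list median. For Myl3 and Mybpc3 every probe held it. Myl4 and Myl7 were also the 2 of 23 sarcomere genes past 1.5-fold, Sln the 1 of 26 calcium handling genes and Mybphl the 1 higher of the stress genes. The share of atrial tissue in each 30 mg sample is not given in the sources used here, and its part in these values was not tested. In the other contrasts the same 12 markers had medians of -0.52 (LPS, 6 lower by 1.5-fold or more) and 1.08 (CLP with its sign turned, 8 higher).

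The lists of contractile and ion handling genes, which hold some of the atrial genes, had medians close to 0, with some members farther away. Sarcomere genes had a median of 0.01, which is the repeated value 0.0083 present at 9 of the 23 genes, with Actc1 lowest at -0.21. Calm2, 1 of the calmodulin genes, was lowest of the calcium handling genes at -0.41 ± 0.03 (2 probes), and the median was -0.02. None of 22 ion channel and gap junction genes passed 1.5-fold, and their median was -0.02. They lay between Gja1, which encodes connexin 43, at -0.50 and Kcna5 at 0.24.

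Most chaperone and endoplasmic reticulum genes lay slightly below 0, and a few members passed 1.5-fold, where 0.460% of all genes did. Of 22 heat shock genes, Hsp90aa1 was lower at -0.66, 19 lay below 0 and the median was -0.07, with Stip1 highest at 0.10. Of 25 genes of the unfolded protein and integrated stress responses, Manf, a secreted protein of the endoplasmic reticulum, was lower at -0.72, whereas Chac1, a glutathione-degrading enzyme, and Herpud1, a factor of endoplasmic reticulum-associated degradation, were higher at 0.69 and 0.63. In that list 17 genes lay below 0, and the median was -0.10. Of 21 hypoxia-responsive genes, Egln3, a prolyl hydroxylase of HIF, was lower at -1.01, and the median was 0.02. Of 16 iron handling genes, 2 were lower, Lcn2 and Tfrc, the transferrin receptor, the second at -1.16, and the median was 0.00. None of 25 antioxidant genes passed 1.5-fold, with Txnip, the thioredoxin-interacting protein, highest at 0.54 ± 0.01 (2 probes). None of 25 apoptosis regulators did so either, with Gadd45b at 0.55 and Bik at -0.30 at the ends.

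In vessel and matrix genes, 2 members passed 1.5-fold, where 0.460% of all genes did. Aplnr, the apelin receptor, stood at -0.59 ± 0.41 (2 probes) among 25 vasoactive and angiogenic genes with a median of -0.02. Lox, which crosslinks collagen, stood at 0.59 among 34 matrix genes with a median of -0.04, and Col15a1, a basement membrane collagen, was lowest at -0.54 ± 0.09 (2 probes). TGF-beta and BMP genes (25 measured) stayed between Tgfb2 at -0.34 and Bmp4 at 0.17, and cell cycle genes (22 measured) between Ccnb2 at -0.16 and Ccna2 at 0.35.

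Genes of energy metabolism stayed within 1.5-fold, and 1 repeated value covered part of them. None of 35 fatty acid, 25 glycolytic, 39 oxidative phosphorylation, 14 tricarboxylic acid cycle and 21 lipid synthesis genes passed 1.5-fold. Over all genes 0.460% did. Fatty acid genes had a median of 0.03, with Pdk4 highest at 0.38 and Ppargc1b lowest at -0.31. A single exact value, 0.0083, was held by 359 probes, while the next most frequent value was held by 25; what it marks is not given in the sources used here. Of these probes 265 carried 1 gene and 94 were unnamed, and they touched 224 measured genes (1.26%). For 121 genes every probe held it, and for 103 genes some did. The value recurred at 20 of 39 oxidative phosphorylation genes, 9 of 23 sarcomere genes, 6 of 14 tricarboxylic acid cycle genes, 7 of 25 glycolytic genes and 6 of 35 fatty acid genes, and the list medians of 0.01 in the first 4 are this value itself. In the LPS column 290 of the 359 probes also stood on that column's own recurring value, in the CLP column 330, and in all 3 columns 282. No gene past 1.5-fold had a probe on it. Other probes of the same genes, 170 in all, had a median of 0.00 and an SD of 0.13, and ran from -0.56 to 0.44. The other probe of Dcn, a small matrix proteoglycan, stood at 0.44, and that of Myh6, the main myosin heavy chain of mouse ventricle, at 0.02.

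Of the 82 genes past 1.5-fold, 43 belonged to no list, 24 of them higher and 19 lower. Adh1, an alcohol dehydrogenase that also oxidises retinol, was second highest of all genes, with probes at 0.86 and 1.00 (1.90-fold higher). Other higher enzymes and transporters were Slc1a3, a glutamate transporter, at 0.74, Fmo2, a flavin monooxygenase, at 0.68 ± 0.09 (3 probes), Acer2, a ceramidase, at 0.60, the lipid transporter Abca6 at 0.59 ± 0.02 (2 probes) and Gadl1, a decarboxylase, at 0.67. Rhobtb1 stood at 0.71 ± 0.10 (2 probes), Tnfaip8l3 at 0.74, Dnmt3b, a DNA methyltransferase, at 0.62, and Sesn1, a stress-induced sestrin, at 0.59 ± 0.05 (3 probes). On the lower side stood Ccdc172 at -1.33, Rapgefl1 at -1.02, Kcnj1, a potassium channel best known from kidney, at -0.89, Mtag2 at -0.87, Ccdc116 at -0.82, Rtn4r, the Nogo receptor, at -0.79, Pole2, a subunit of DNA polymerase epsilon, at -0.75, and Rps6ka6 at -0.72. All of these lower genes had 1 probe and are among the 22 genes past 1.5-fold that lacked a value in LPS or CLP hearts. Ccdc172, Rapgefl1, Kcnj1, Mtag2, Rtn4r and Rps6ka6 were blank in both, as was the higher gene Tnfaip8l3. Ccdc116 was blank in CLP hearts and Pole2 in LPS hearts.

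The same genes can be set beside esmolol in septic hearts, where more genes passed 1.5-fold: 766 of 17733 in LPS (4.32%) and 165 of 17339 in CLP (0.952%). The labels give the CLP ratio as untreated over treated, so its sign was turned here, but the design text speaks of treated against untreated hearts throughout, and the direction in CLP is not settled. Of the 43 genes lower in non-septic hearts, 33 had a value in LPS hearts. Of these 30 were also below 0, and 16 passed 1.5-fold in the same direction (37.2% of the 43, where 2.26% of all genes were lower in LPS); none passed it in the opposite direction, and their median there was -0.58. Cxcl10 stood at -2.78 in non-septic and -2.56 in LPS hearts, Cxcl9 at -1.60 and -2.13, Cd274 at -2.46 and -1.65, and Ifit2 at -0.66 and -1.92. Lcn2 was near 0 in LPS hearts at -0.15. Every probe of Saa3, Nppb and Rcan1 stood on the recurring value of the LPS column, -0.0430. What that value marks is not given, so their ratio there is not interpreted here, although the 3 are counted among the 30 below 0.

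Of the 39 higher genes, 33 had a value in LPS hearts, of which 16 were above 0. There, 8 passed 1.5-fold in the same direction (20.5% of the 39, where 2.06% of all genes were higher in LPS) and 6 in the opposite one. Among the 8, Klhl38 stood at 0.81 in non-septic and 1.25 in LPS hearts, Ahsg at 1.03 and 0.75, Adh1 at 0.93 and 0.59 and Dbp at 0.69 and 0.83. Fkbp5, at 0.73 and 0.46, fell short of the threshold in LPS hearts, and Per1 stood at 0.60 and -0.18. In LPS hearts the list medians were -0.14 for clock genes and -0.02 for glucocorticoid-responsive genes. The 6 with opposite sign included 5 atrial markers, such as Sln at 0.80 and -1.20. In CLP hearts, with the sign turned, 29 of the 33 lower genes with a value were above 0, 13 of them past 1.5-fold (where 0.819% of all genes were higher in CLP), and none was lower by 1.5-fold. Of the 39 higher genes, 29 had a value in CLP hearts. Of these 13 were above 0 and 16 below. There, 5 passed 1.5-fold in the same direction and 2 in the opposite one, where 0.819% and 0.133% of all genes were higher and lower in CLP. The 5 were the atrial markers Sln, Myl4, Myl7, Dkk3 and Mybphl, the same 5 that had the opposite sign in LPS hearts. Cxcl5 stood at -2.88 in non-septic and 2.18 in CLP hearts, and Csf3 at -0.68 and 2.22. If the deposited CLP column already ran treated over untreated, these signs would be the reverse, with Cxcl5 at -2.18 and Csf3 at -2.22 in CLP hearts. Differences between contrasts were not tested, since each contrast is a single merged value.

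**Figure D4:**
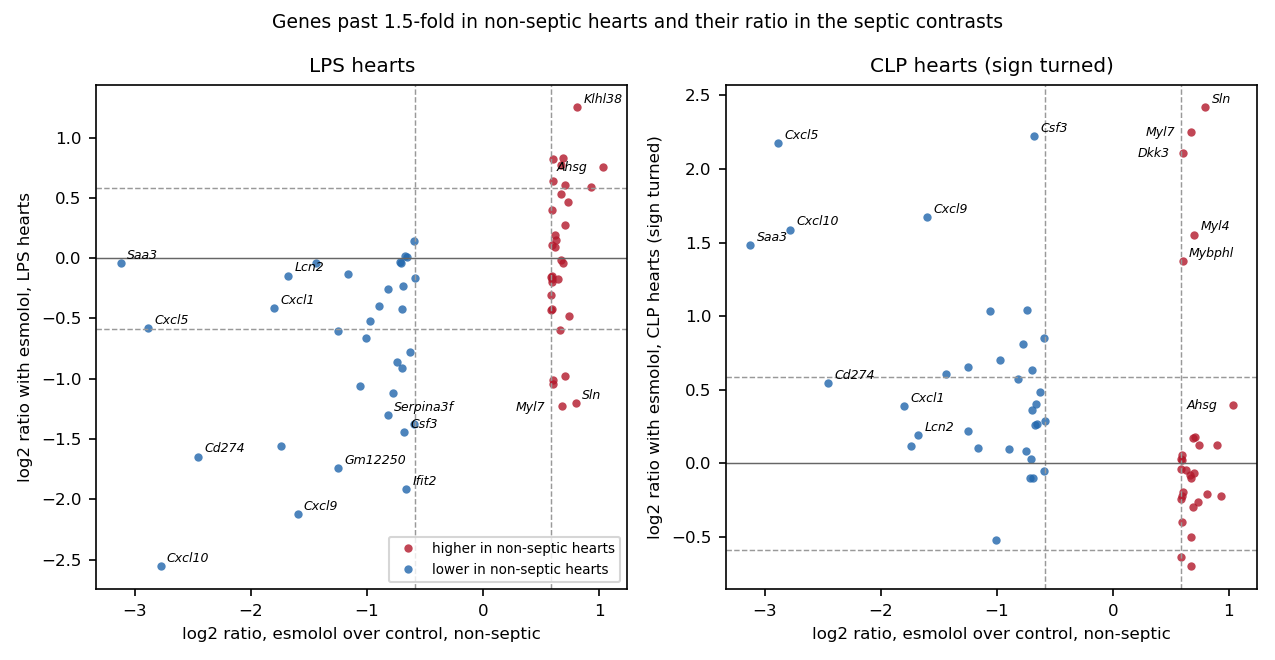
Genes past 1.5-fold in non-septic hearts with a value elsewhere, by log2 ratio of esmolol over control (horizontal axis) and log2 ratio with esmolol in LPS hearts (left panel, vertical axis) or CLP hearts with the sign turned (right panel, vertical axis); red genes were higher and blue genes lower in non-septic hearts, and dashed lines mark 1.5-fold. Of 33 blue genes, 30 lie below 0 in LPS hearts (3 of them, Saa3, Nppb and Rcan1, on that column's recurring value) and 29 above 0 in CLP hearts, a position that depends on the unsettled sign of the CLP column.

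Blank values were more frequent among these genes than among all genes, a comparison not matched for the number of probes. A value was missing in LPS or CLP hearts for 22 of the 82 genes past 1.5-fold (26.8%), against 839 of all 17814 measured genes (4.71%). All 22 had 1 probe (33.3% of the 66 with 1 probe), and none of the 16 genes with more than 1 probe was blank there. A gene is blank only where all of its probes are, so genes with 1 probe are blank more readily. The share over all genes with 1 probe is not given here. For olfactory and vomeronasal receptor genes the share was 16.2%. Markers of tissues that a heart sample could carry along stayed within 1.5-fold. Only 0.460% of all genes passed it, so none past it is the usual outcome for lists this short. Fast skeletal muscle (12 measured) lay between Mylpf at -0.27 and Tnni2 at 0.12 with a median of -0.10. Adipocyte markers (10 measured) lay between Car3 at -0.42 and Pnpla2 at 0.21, and lung epithelium (5 measured) between Aqp5 at -0.25 and Sftpb at 0.14. Blood and platelet markers (8 measured) lay between Gp9 at -0.35 and Slc4a1 at 0.06 with a median of -0.12. Endothelial markers (16 measured) ran from Kdr at -0.32 to Aqp1 at 0.44, fibroblast markers (12 measured) from Col3a1 at -0.17 to Dcn at 0.22, and smooth muscle and pericyte markers (10 measured) from Acta2 at -0.21 to Cnn1 at 0.07, with medians of 0.02, -0.01 and -0.05.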

How the data were processed

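Mouse heart RNA was compared on 2-colour arrays, and per the labels both dyes were used for both channels. Each value deposited by the authors is 1 log ratio per probe, read here as log2, that merges 4 replicates with dye swaps per the labels' descriptions. How arrays were scanned and normalized, the log base, and whether replicates were separate animals is not given in the sources used here; p-values were therefore not computed. Of 41174 probes, 35261 had a value (14.4% blank); their median was 0.0044, and values were not centred again. Genes were named from the platform annotation, updated through RefSeq GRCm38.p6: 32664 probes had 1 gene, 45 several and 8465 none, and 32524 matched RefSeq. Probes were collapsed by the median. Without intensities, precision per gene is limited by the 4 merged replicates and cannot be given.

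Analysis used Python 3.11.15, pandas 2.3.3, numpy 2.4.6 and matplotlib 3.10.9, and was checked on simulated data. Named genes are the 25 highest and 25 lowest with plain symbols and probes on the same side of 0, list members past 1.5-fold, each list's extremes, members of the drug target, clock, glucocorticoid, chemokine, interferon and natriuretic lists, and genes beside the threshold. Others, among them Abca6, Ankrd23, Bmp10, Cxcr2, Dcn, Fbxo32, Ifit3b, Il1b, Il6, Lgals3, Ly6c2, Lyve1, Mybpc3, Myh6, Myl3, Saa1, Saa2, Saa4, Sesn1, Socs3, Tbx5 and Tnf, were named after their values were seen. The 36 response and 18 marker lists and the members were chosen with earlier results of these data known. Promoters came from a RefSeq table, 1 window of 300 bases for each of 32851 starts, matched by symbol; 14246 of the measured genes had an entry. Alternatives changed the probe summary, gene filter, centring, log base and threshold.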

Additional observations from a re-analysis of the deposited data

Results flagged for a closer look

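Genes past 1.5-fold in opposite directions in non-septic hearts and in a septic contrast are given here by the difference of their log2 ratios, non-septic minus septic. No difference was tested, because each contrast is a single merged value.

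Against LPS hearts there were 6 such genes, all higher in non-septic hearts and lower in LPS hearts. The differences were 2.00 for Sln, 1.91 for Myl7, 1.68 for Myl4, 1.64 for Mybphl, 1.61 for Dkk3 and 1.27 for Higd1c. The first 5 are atrial markers, and the 12 atrial markers measured had medians of 0.35 in non-septic and -0.52 in LPS hearts.

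Against CLP hearts, with the sign turned, there were 15. The 2 that were higher in non-septic hearts were Shld1 (1.37) and Fut4 (1.23). The 13 that were lower there were Cxcl5 (-5.06), Saa3 (-4.60), Cxcl10 (-4.37), Cxcl9 (-3.27), Csf3 (-2.90), Cxcl2 (-2.09), Nppb (-2.04), Igtp (-1.90), Orm1 (-1.78), Ptx3 (-1.68), Ifit1 (-1.58), Gbp3 (-1.45) and Ifit3b (-1.33). These differences rest on the order of the CLP title. With the sign as deposited, a reading added after seeing the data, none of the 15 is among them, and 5 other genes are, all atrial markers higher in non-septic hearts: Sln (3.21), Myl7 (2.93), Dkk3 (2.71), Myl4 (2.26) and Mybphl (1.98). Cxcl5 would then differ by -0.71, Saa3 by -1.64 and Cxcl10 by -1.19, in the same direction in both contrasts.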

How the results depend on the processing

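The main counts at 1.5-fold were 82 genes in all, 39 higher, 43 lower and 38 in the response lists. They stayed within 1.5 times of this under the mean of the probes (81 in all), the probe nearest 0 (76), probes on the recurring value left out (82), genes with all probes on the same side (82), genes with a value in all 3 contrasts (60) and centring on the column median (80). With genes that have more than 1 probe, the counts were 16, 7, 9 and 7, since most genes past the threshold have 1 probe. Reading the values as natural logarithms gave 282, 128, 154 and 63, and as log10 2350, 1057, 1293 and 204, by construction, so every count above depends on the assumed base. At 1.3-fold the counts were 332, 146 and 186, and at 2-fold 17, 1 and 16. The 50 genes named for their rank kept their side of the threshold under the mean, without the recurring value and after centring. This was largely fixed in advance, because they were chosen without probes on the recurring value and most had 1 probe. With the probe nearest 0, Ptx3 at -0.13 and Fmo2 at 0.5844 would fall inside the threshold of 0.5850. Of the list medians, 5 of 51 moved by more than the SD between probes (0.11) over genes with more than 1 probe, the clock genes most, to 0.06, and the atrial median became 0.23 with the probe nearest 0; the cause was not tested. Without the recurring value the natriuretic and stress list had a median of -0.11. With the CLP sign as deposited, chosen after seeing the data, 5 genes instead of 15 passed 1.5-fold in opposite directions in non-septic and CLP hearts, by construction. No direction of a gene past the threshold reversed, which was fixed in advance. Each such gene had 1 probe or all of its probes on the same side of 0, which also fixed the count of 82 for that filter. No paired analysis was possible because each contrast is 1 merged column without replicate values, and leaving out a replicate was not possible for the same reason.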

Other observations

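Below 1.5-fold, genes whose probes agreed gave a further group. All probes passed 1.3-fold the same way in 30 of 7472 genes with more than 1 probe (0.401%), 18 higher and 12 lower, and these include the 10 genes described above; those that follow were named after their values were seen. On the higher side were Fam214a at 0.55 ± 0.21 and Fam117b at 0.54 ± 0.06 (4 probes), Xdh, the xanthine dehydrogenase that makes uric acid, at 0.43 ± 0.03, Mylip, a ubiquitin ligase that degrades the LDL receptor, at 0.42 ± 0.02, and Cebpb, a leucine zipper factor of the acute phase response, at 0.42 ± 0.02. On the lower side were Slc16a6, a monocarboxylate transporter, at -0.57 ± 0.07, Retnla, a resistin-like protein of alternatively activated macrophages, at -0.55 ± 0.04, Mgat3, a glycosyltransferase, at -0.42 ± 0.01, and Cited4, a transcriptional cofactor, at -0.39 ± 0.01. Where no number is given, 2 probes were measured.

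Among 6257 measured probes without a gene name, 16 were higher and 25 lower by 1.5-fold or more (0.655%). The lowest stood at -1.71 in non-septic and -1.40 in LPS hearts, and the highest at 0.99. Of the 224 genes with a probe on the recurring value, 41 had symbols of the respiratory chain and ATP synthase, 7 encoded ribosomal proteins, and 25 were zinc finger genes of the Zfp series, of which 333 were measured.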
